A study of Rattus norvegicus with 36 samples.

Results

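The genes of mitochondrial fission and fusion described here were *Mff*, *Dnm1l*, *Fis1*, *Mfn1*, *Mfn2*, *Opa1* and *Oma1*. They were chosen by name, with earlier results of these data known. The 7 names were carried by 8 of the 24275 loci listed, since *Mff* was listed at 2 loci. Which values led to the members other than *Mff* is not stated, so their p-values do not come from genes chosen blind to the data. *Mff* was selected on its low level in hypoxia with the Trim AG mimic relative to miR-125b, so its values in those groups are given as a description with no test. The RNA came from H9C2 cells, a myoblast line derived from the embryonic rat heart, and all groups shared this line. The cells received, at 25 nmol/L, a mimic control (MC), a miR-125b mimic or an isomiR mimic that differs from miR-125b at its 3′ end. Plus A carries an additional A. Trim A lacks the last base, Trim AG lacks AG and Trim AGU lacks AGU. Where values follow each other for the mimics, miR-125b comes first, then Plus A, then the trimmed isomiRs from Trim A to Trim AGU. Each mimic was studied in normoxia and in hypoxia, with 3 libraries for each of 12 groups, and counts of 33 libraries in 11 groups were used. By the paper's methods, hypoxia cells were held in serum-free, low-glucose medium, and normoxia cells in fresh medium under normal culture. Oxygen and medium therefore cannot be told apart. For Normoxia MC only a mean of the group was available here. Nothing in the labels says that the libraries of a group came from separate cultures, so the p-values measure the spread between these libraries, which may be technical.

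Mitochondria divide and join continually, and the balance sets whether they form a network or separate fragments. Dnm1l (Drp1) is the dynamin-related GTPase that constricts the outer membrane in fission, and Mff and Fis1 are outer membrane proteins that act as its receptors or adaptors. Mfn1 and Mfn2 are GTPases that join outer membranes, Opa1 is the GTPase that joins inner membranes and shapes cristae, and Oma1 is the stress-activated inner membrane protease that cleaves Opa1. In heart muscle these proteins are known for their part in mitochondrial quality control and in the response to lack of oxygen.

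The sequences of the mimics are shown because the miR-125b mimics differ from each other only at their 3′ ends. The miR-125b sequence was taken from RefSeq (GRCr8, chr11:29732588-29732609, plus strand), and the isomiRs were derived from it by the bases that the treatment protocol in the labels names. The sample titles give Trim 1, Trim 2 and Trim 3, read here as the deletions of A, AG and AGU in that order. Capitals mark the seed, bases 2 to 8 from the 5′ end, which was the same in all 5 sequences.
miR-125b: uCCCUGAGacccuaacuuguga
Plus A: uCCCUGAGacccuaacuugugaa
Trim A: uCCCUGAGacccuaacuugug
Trim AG: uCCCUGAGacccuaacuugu
Trim AGU: uCCCUGAGacccuaacuug

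Libraries held 28361216 to 42672584 counts, and the deepest were those of Hypoxia Trim AG (39940087 to 42672584). Of the 8 genes listed to check the oxygen label, *Vegfa*, *Slc2a1*, *Ankrd37* and *Adm* were higher in every hypoxia library than in every normoxia library. The myogenic markers *Myod1* (17.1 to 146 CPM, counts scaled to a library total of 1000000) and *Myog* (10.4 to 359 CPM) were present. *Myf5* and *Myf6* stayed at or below 0.0703 and 0.165 CPM, and *Des* at or below 4.98 CPM. Of the other striated muscle genes listed, *Tnnt2* ranged from 9.22 to 316 CPM and *Actc1* from 0.0664 to 35.0 CPM. *Ryr2*, *Srl* and *Csrp3* stayed at or below 0.207, 7.07 and 6.73 CPM. The cardiomyocyte markers *Myh6*, *Nppa*, *Nppb* and *Myl7* stayed at or below 0.894, 0.301, 0.750 and 0.516 CPM, whereas *Tnni3* and *Pln* reached 3.43 and 8.66 CPM. The fibroblast marker *Col1a1* lay at 5403 to 27702 CPM, and *Col1a2*, *Col3a1* and *Postn* lay at or above 429 CPM. *Dcn* ranged from 0.797 to 44.2 CPM, and *Pdgfra* stayed at or below 0.846 CPM. The smooth muscle markers *Acta2*, *Tagln* and *Cnn1* lay at 3921 to 11154.5, 1549 to 5519 and 128 to 750 CPM, and *Myh11* at 6.75 to 32.6 CPM. In bulk RNA, fewer cells of a type and less RNA per cell cannot be told apart. In several groups 1 library differed from the others. Hypoxia Trim AGU replicate 2 had 16981 genes with a count, against 18342 to 19451 in the others. Its chi-square per gene, which measures how far the counts of a pair of libraries lie apart, was 236 and 134 against its replicates, which differed from each other by 48.1. Hypoxia Trim A replicate 1 gave 79.7 and 61.7 against its replicates, which differed by 8.16, and Hypoxia Trim AG replicates 1 and 2 differed by 103. Replicate 1 of Normoxia Plus A and replicate 1 of Normoxia miR-125b went against their labels in *Cav1*, which was picked for this check with its values known. The *Cav1* level was 268.9, 98.0 and 98.3 CPM in Normoxia Plus A and 102, 282 and 263 CPM in Normoxia miR-125b.

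Each member was listed as a protein-coding gene, and positions are as the deposited tables give them, with no genome build named in the sources used here. The *Mff* loci were ENSRNOG00000015428 at chr9:90880614-90908852 and ENSRNOG00000048016 at chr9:88493593-88517827, both on the plus strand and 2362787 bases apart. The RefSeq table of rat genes (GRCr8) holds 1 entry for *Mff*. *Dnm1l* lay at chr11:88830957-88880198, *Fis1* at chr12:22750485-22765308, *Mfn1* at chr2:118929738-118973698, *Mfn2* at chr5:164562149-164585634, *Opa1* at chr11:74720254-74793803 and *Oma1* at chr5:122847645-122900475. A locus described as mitofusin-2-like, *LOC100911485* (chr5:164684509-164714145), lay 98875 bases from *Mfn2* and is shown beside it. The RefSeq table holds 1 entry for *Mfn2* and 0 for *LOC100911485*. Reads of near-identical copies can be split between loci, so the values of each *Mff* locus, of *Mfn2* and of *LOC100911485* are uncertain, and shared reads were not tested.

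Levels were compared between genes as FPKM, the count scaled by gene length and library total, which the authors computed. *Fis1* had the highest group mean of the members in each of the 11 groups (67.6 to 105 FPKM), followed in each by *Dnm1l* (24.8 to 40.1 FPKM). *Opa1* (14.6 to 25.0 FPKM) and *Mfn1* (11.7 to 18.3 FPKM) came next. Group means of *Mff* ranged from 3.79 to 16.3 FPKM at ENSRNOG00000048016 and from 0.871 to 12.9 FPKM at ENSRNOG00000015428. *Oma1* had 2.56 to 3.83 FPKM and *LOC100911485* had 1.15 to 5.49 FPKM. Every library placed *Fis1* above *Dnm1l* and *Mfn1* above *Oma1* in 11 of 11 groups. *Dnm1l* lay above *Opa1* in every library of 10 groups. *Opa1* lay above *Mfn1* in every library of 8 groups and below it in every library of 1 group, Hypoxia Trim AG, so the order of these neighbours was not fixed. The locus named *Mfn2* held almost no reads, with 13 counts over all 33 libraries and at most 2 in any library, while *LOC100911485* held 11124. Reads shared between these loci were not tested, so the count is no measure of *Mfn2* expression. The *Mfn2* locus passed the filter on low counts in no comparison and was not tested.

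The members differed widely in how well replicates agreed. The pooled SD within groups, on the log2 CPM scale, was 0.0614 for *Mfn1*, 0.107 for *Opa1*, 0.198 for *Fis1*, 0.231 for *Oma1* and 0.248 for *Dnm1l*. The median of the 13162 genes with at least 1 CPM on average was 0.174. Only 1.00% of these genes had a smaller SD than *Mfn1*. By contrast, the SD was 1.23 for *Mff* ENSRNOG00000015428 and 0.890 for *Mff* ENSRNOG00000048016, and 99.2% and 98.6% of genes varied less. Large spread was more frequent among names carried by more than 1 locus. An SD above 1 was found in 13.1% of the 275 such loci, against 1.15% of all genes. The part of shared names in the spread of *Mff* was not tested.

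**Figure D1:**
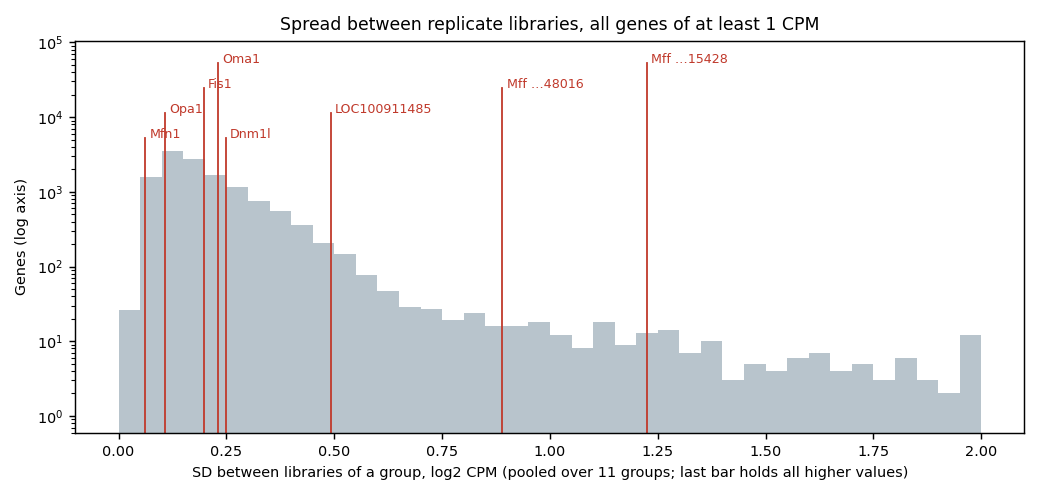
Histogram of the pooled SD within groups (x axis, log2 CPM) over 13162 genes (log y axis, number of genes), with vertical lines for the members and LOC100911485. Mfn1 sits at the far left (0.0614) and both Mff loci at the far right (0.890 and 1.23), with the other members near the median of 0.174.

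*Mff* ENSRNOG00000015428 spanned 1.15 to 47.1 CPM over the 33 libraries. Its level was 36.8, 14.4 and 39.0 CPM in Hypoxia MC and 42.2, 31.3 and 14.7 CPM in Hypoxia miR-125b. It was 1.94, 1.15 and 2.74 CPM in Hypoxia Trim AG. All 3 Hypoxia Trim AG libraries lay below all libraries of Hypoxia MC and Hypoxia miR-125b. *Mff* was selected on the contrast with miR-125b, which uses the same Trim AG libraries as that with MC. Between Hypoxia Trim AG and Hypoxia MC, 66.8% of all genes had no overlap. In Hypoxia Plus A it was 20.6, 8.83 and 4.34 CPM, in Hypoxia Trim A 3.03, 7.19 and 3.04 CPM, and in Hypoxia Trim AGU 2.06, 33.1 and 2.12 CPM. The high Hypoxia Trim AGU library was replicate 2, the one with fewer genes detected. In normoxia the level was 6.10, 6.51 and 3.06 CPM with miR-125b, 3.56, 47.1 and 3.22 CPM with Plus A, and 5.29, 13.8 and 15.1 CPM with Trim A. It was 22.1, 18.9 and 14.6 CPM with Trim AG and 9.70, 17.3 and 3.01 CPM with Trim AGU. The Trim AG libraries had the lowest mean of the hypoxia groups, whereas in normoxia all 3 lay above all miR-125b libraries. Between Trim AG and miR-125b, 54.1% of all genes had no overlap in hypoxia and 51.8% in normoxia.

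The second *Mff* locus, ENSRNOG00000048016, spanned 2.12 to 21.9 CPM. It had 11.8, 5.64 and 4.36 CPM in Hypoxia MC, 5.50, 12.7 and 7.26 CPM in Hypoxia miR-125b, and 14.3, 6.91 and 3.49 CPM in Hypoxia Trim AG. These 3 groups overlapped. In normoxia it had 6.03, 9.60 and 18.5 CPM with miR-125b, 2.71, 4.18 and 3.99 CPM with Trim AG and 4.81, 2.21 and 5.38 CPM with Trim AGU. The Trim AG and Trim AGU libraries of normoxia all lay below those of miR-125b. In these comparisons 51.8% and 43.1% of all genes had no overlap, in either direction. In Normoxia Trim A it was 21.9, 2.12 and 21.5 CPM, where replicate 2 stood apart. Described without a test, the log2 difference of Hypoxia Trim AG minus Hypoxia miR-125b was -3.89 at ENSRNOG00000015428 (1.94 ± 0.795 against 29.4 ± 13.9 CPM, SD, n = 3). At ENSRNOG00000048016 it was -0.03, and for the sum of the loci -1.88. Over 33 libraries the loci had a Pearson r of -0.38 on the log2 CPM scale, a description of libraries that share groups. Their sum ranged from 6.23 to 51.2 CPM.

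**Figure D2:**
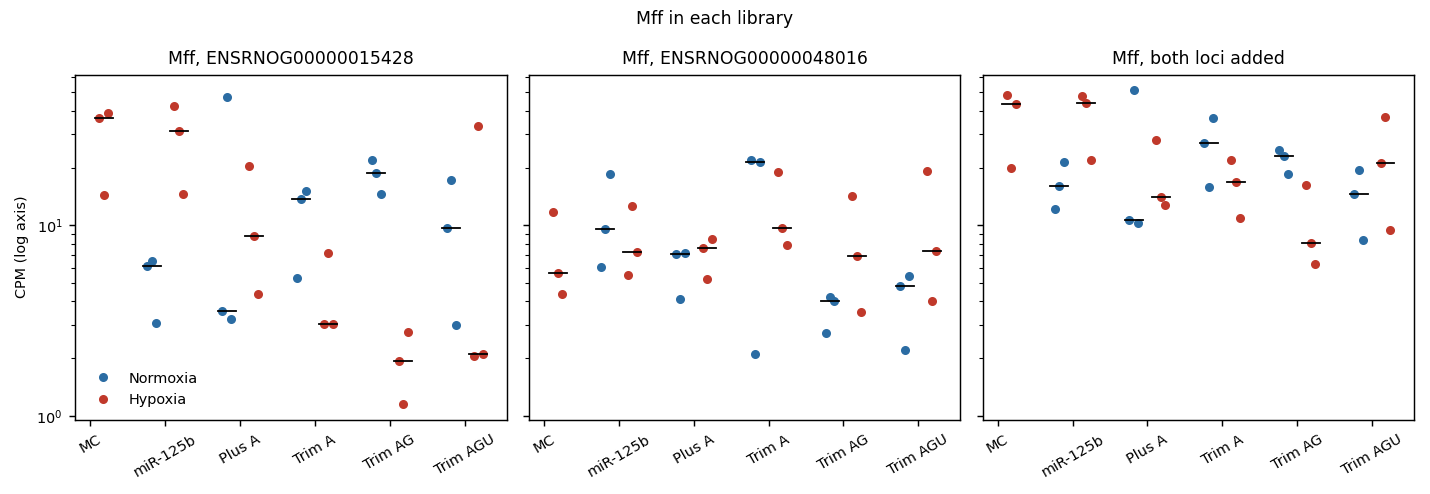
CPM of Mff in each library (points, log axis) with the median of each group (bar), in separate panels for the loci and their sum, for the 11 groups with counts. At ENSRNOG00000015428 the Hypoxia Trim AG libraries lie at 1.15 to 2.74 CPM and those of Hypoxia miR-125b at 14.7 to 42.2 CPM, while at ENSRNOG00000048016 these groups overlap.

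The first question was whether a mimic changed a member in hypoxia relative to MC, in comparisons that share the MC libraries. A member was called where the fold change was at least 1.5 at an edgeR adjusted p below 0.05. A change that passed the p alone is given as smaller than that fold. *Dnm1l* was called higher with Plus A and with Trim A. Its level was 70.5, 71.3 and 67.7 CPM in Hypoxia MC, 110.0, 106.7 and 106.0 CPM with Plus A, and 99.9, 111 and 108 CPM with Trim A. All Plus A and Trim A libraries lay above all MC libraries. Of all genes tested, 63.4% and 60.8% had no overlap in these comparisons. The log2 difference was 0.65 ± 0.05 (SE) with Plus A (edgeR adjusted p = 1.91e-06) and 0.66 ± 0.07 with Trim A (edgeR adjusted p = 0.000198). *Dnm1l* also rose, by less than 1.5-fold, with miR-125b (89.2, 85.3 and 88.5 CPM), where the log2 difference was 0.36 ± 0.04 (edgeR adjusted p = 1.07e-05). With Trim AG (74.4, 88.4 and 90.8 CPM) it was 0.34 ± 0.09 (edgeR adjusted p = 0.0124), which ended without MC replicate 3 or Trim AG replicate 3 (edgeR adjusted p = 0.0563 and 0.0587). Hypoxia Trim AGU had 95.4, 34.9 and 100.0 CPM, with replicate 2 below every MC library. The difference was 0.25 ± 0.32 with that library (edgeR adjusted p = 0.584) and 0.57 without it (edgeR adjusted p = 0.000405).

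*Fis1* moved little. It had 110.1, 107 and 102 CPM in Hypoxia MC and fell with Trim AG alone of the 5 mimics (76.1, 92.0 and 87.3 CPM), by 0.26 ± 0.09 on the log2 scale (edgeR adjusted p = 0.039). That call ended when any library but Trim AG replicate 2 was left out, with an adjusted p between 0.0607 and 0.129. Among the tested *Mff* comparisons, ENSRNOG00000015428 was called lower with Trim A, with a log2 difference of -2.72 ± 0.45 (edgeR adjusted p = 0.00144). It kept this call in 11 of 11 alternatives, with differences from -3.27 to -2.49. It was also called lower with Plus A (-1.39 ± 0.49, edgeR adjusted p = 0.0327), although the libraries overlapped. That call ended without MC replicate 1, MC replicate 3, Plus A replicate 2 or Plus A replicate 3, with an adjusted p between 0.0709 and 0.115. With Trim AGU the difference was -1.04 ± 1.10 (edgeR adjusted p = 0.5), and it was -3.76 without replicate 2 (edgeR adjusted p = 0.000275). At ENSRNOG00000048016 the differences were -0.01 with Plus A, 0.79 with Trim A and 0.59 with Trim AGU (edgeR adjusted p = 0.981, 0.149 and 0.478). The Trim A value at this locus became 1.32 without MC replicate 1 and was then called (edgeR adjusted p = 0.028). Summed over both loci, *Mff* fell by 1.00 with Plus A (edgeR adjusted p = 0.0301) and fell by 1.12 with Trim A (edgeR adjusted p = 0.0231), an alternative chosen after the data were seen.

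Of the fusion genes, *Mfn1* rose with all 5 mimics, each time by less than 1.5-fold. It had 51.5, 56.7 and 53.0 CPM in Hypoxia MC and 73.3, 72.5 and 70.2 CPM with Trim AG, the mimic with the largest difference, 0.49 ± 0.07 on the log2 scale (edgeR adjusted p = 0.00043). The differences were 0.21 with miR-125b, 0.30 with Plus A and 0.41 with Trim A (edgeR adjusted p = 0.00232, 0.00217 and 0.00288). With Trim AGU it was 0.39 (edgeR adjusted p = 0.0245), and 0.25 when libraries were scaled by their totals (edgeR adjusted p = 0.0951). The Trim AGU call also ended without any MC replicate or Trim AGU replicate 3, with an adjusted p between 0.0619 and 0.13. Without Trim AGU replicate 2 it was 0.37 (edgeR adjusted p = 0.00482). *Opa1* had 61.0, 62.0 and 65.6 CPM in Hypoxia MC and fell with Trim AG (47.2, 50.1 and 47.9 CPM). Its libraries did not overlap there, as was so for 66.8% of all genes. The log2 difference was -0.31 ± 0.07 (edgeR adjusted p = 0.00418). It was 0.16 with Plus A and 0.17 with Trim A (edgeR adjusted p = 0.056 and 0.076). Without Hypoxia Trim A replicate 1, *Opa1* and *Fis1* passed with Trim A, at 0.17 and 0.27 (edgeR adjusted p = 0.0287 and 0.000734). *Oma1* did not pass the test with any of the 5 mimics, with log2 differences between -0.12 and 0.17.

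In counts over members, 0 of 5 loci were called with miR-125b, where 21.9% of all genes tested were called. With Plus A and with Trim A, 2 of 7 were called, against 24.8% and 28.1% of all genes. With Trim AG, 0 of 5 were called, against 37.2%, and with Trim AGU 0 of 7, against 23.8%. At an adjusted p below 0.05 with no minimum fold, the counts were 2, 3, 3, 4 and 1 in the order of the mimics. The same rule took 59.5%, 56.6%, 52.1%, 59.4% and 29.9% of all genes. Read against these backgrounds, the share of members was close to or below that of all genes in each comparison but Trim AG with no minimum fold, where 4 of 5 loci passed. The median log2 difference of the members tested lay between -0.09 and 0.25, and that of all genes between -0.02 and 0.00. Beside the fusion and fission genes, a list of 11 tested genes of mitochondrial content (matrix, import and outer membrane proteins) had a median difference of 0.10, 0.26, 0.30, 0.49 and 0.57 in the same order. The last was 0.40 without Hypoxia Trim AGU replicate 2. Its part in the member differences was not tested.

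**Figure D3:**
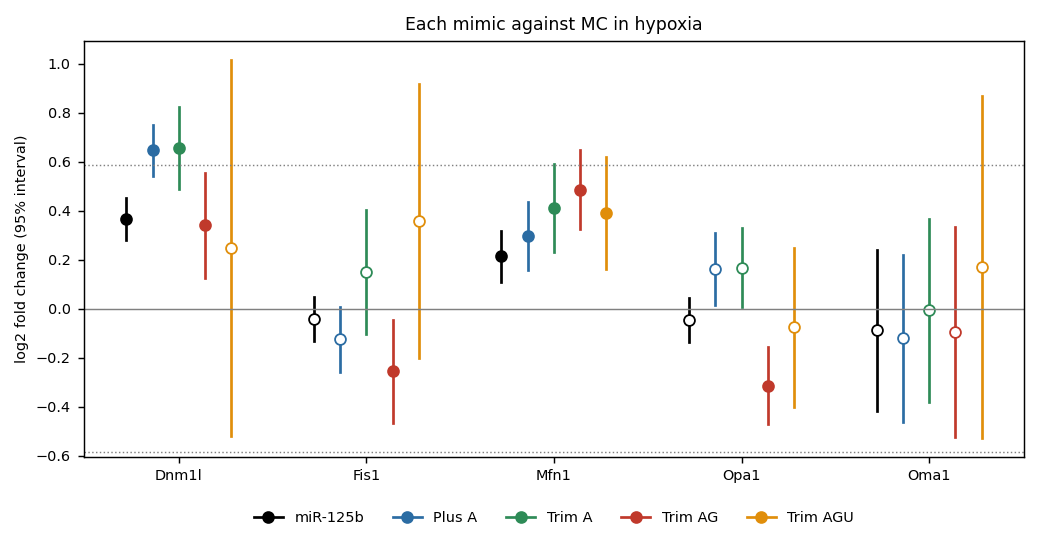
Log2 difference from Hypoxia MC (y axis) of 5 members (x axis) with each of the 5 mimics (colours), with lines for the 95% confidence interval, filled points at an edgeR adjusted p below 0.05 and dotted lines at a fold of 1.5. Dnm1l passes the dotted line with Plus A and Trim A (0.65 and 0.66), whereas all 5 Mfn1 points lie above 0 and below it.

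The next question was whether the 3′ end of the mimic changed a member relative to miR-125b. In hypoxia no member was called, in comparisons that share the Hypoxia miR-125b libraries and in which *Mff* was not counted. The 0 of 5 loci stand against 2.03%, 0.873%, 19.3% and 3.75% of all genes called, from Plus A to Trim AGU. DESeq2 also called 0. At an unadjusted edgeR p below 0.05 there were 2, 3, 3 and 0 loci in the same order. The share of all genes at that unadjusted p was not computed, so these counts are no result about the members. With no minimum fold, 2, 0, 2 and 0 loci passed, against 15.9%, 2.19%, 41.4% and 4.15% of all genes. *Dnm1l* rose with Plus A over miR-125b by 0.28 ± 0.04 on the log2 scale (edgeR adjusted p = 0.00308). No libraries overlapped, as was so for 36.8% of all genes. With Trim A the *Dnm1l* difference was 0.29 (edgeR adjusted p = 0.0736), and without Trim A replicate 1 it was 0.34 (edgeR adjusted p = 0.000117). *Fis1*, *Mfn1* and *Opa1* then also passed, at 0.31, 0.22 and 0.22 (edgeR adjusted p = 0.000265, 0.0165 and 0.00967), so that Hypoxia Trim A replicate 1 decided whether 0 or 4 of 5 loci passed. The share of all genes that passed in that fit is not given here. *Mfn1* rose with Trim AG (73.3, 72.5 and 70.2 against 60.2, 62.7 and 59.4 CPM), by 0.26 ± 0.06 (edgeR adjusted p = 0.0126). *Opa1* moved the other way there (47.2, 50.1 and 47.9 against 60.4, 59.0 and 58.6 CPM), with a difference of -0.28 ± 0.07 (edgeR adjusted p = 0.0122). Leaving out miR-125b replicate 1 or 3 ended the *Mfn1* call (edgeR adjusted p = 0.0558 and 0.0703). Leaving out any miR-125b replicate or Trim AG replicate 3 ended that of *Opa1*, with an adjusted p between 0.0537 and 0.0664. *Opa1* was higher with Plus A by 0.21 ± 0.06 (edgeR adjusted p = 0.0457), a call that ended without Plus A replicate 1, Plus A replicate 2 or any miR-125b replicate, with an adjusted p between 0.0685 and 0.14.

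In normoxia *Mff* could be tested, since these libraries were not used to select it. ENSRNOG00000015428 was called higher with Trim AG by 1.78 ± 0.26 (edgeR adjusted p = 0.000705), and ENSRNOG00000048016 was called lower, with a difference of -1.69 ± 0.37 (edgeR adjusted p = 0.00571). The libraries did not overlap at either locus, as was so for 51.8% of all genes in this comparison. The sum of the loci differed by 0.37 ± 0.19 (edgeR adjusted p = 0.149). ENSRNOG00000048016 was also called lower with Trim AGU (-1.46 ± 0.42, edgeR adjusted p = 0.0324), and the sum there differed by -0.24 (edgeR adjusted p = 0.581). The Trim AGU call ended without miR-125b replicate 2, miR-125b replicate 3 or Trim AGU replicate 2 (edgeR adjusted p = 0.0507, 0.113 and 0.0702). ENSRNOG00000015428 became called with Trim AGU without its replicate 3 (1.37, edgeR adjusted p = 0.0291). All 3 calls ended in a fit of all libraries together, where the adjusted p was 0.176, 0.0551 and 0.102. *Opa1* had 55.9, 59.8 and 52.5 CPM with Trim AG and 80.3, 76.1 and 75.3 CPM with miR-125b, with no overlap and a log2 difference of -0.51 ± 0.06 (edgeR adjusted p = 0.000328). *Dnm1l* fell with Trim AG (77.0, 84.9 and 75.3 against 107, 89.4 and 96.5 CPM), by 0.35 ± 0.08 on the log2 scale (edgeR adjusted p = 0.00762). Without miR-125b replicate 1, which went against its label, these differences were -0.48 for *Opa1* and -0.27 for *Dnm1l* (edgeR adjusted p = 0.000518 and 0.0113). The *Mff* differences with Trim AG were then 1.91 and -1.99, and both were still called.

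Counted over members, 2 of 7 loci were called with Normoxia Trim AG and 1 of 7 with Trim AGU, against 13.9% and 11.4% of all genes. With Trim A, 0 of 7 were called, against 0.414%. With Plus A, 0 of 7 members were called by edgeR and by DESeq2, and 0% of all genes were called by edgeR. An unadjusted edgeR p below 0.05 was found for 1 member. No share of all genes was computed for that rule, so this count is no result about the members. Without the replicates that went against their labels, 1.12% of all genes were called in that comparison. With no minimum fold, 0, 0, 4 and 1 members passed from Plus A to Trim AGU, against 0%, 1.92%, 38.5% and 25.0% of all genes.

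**Figure D4:**
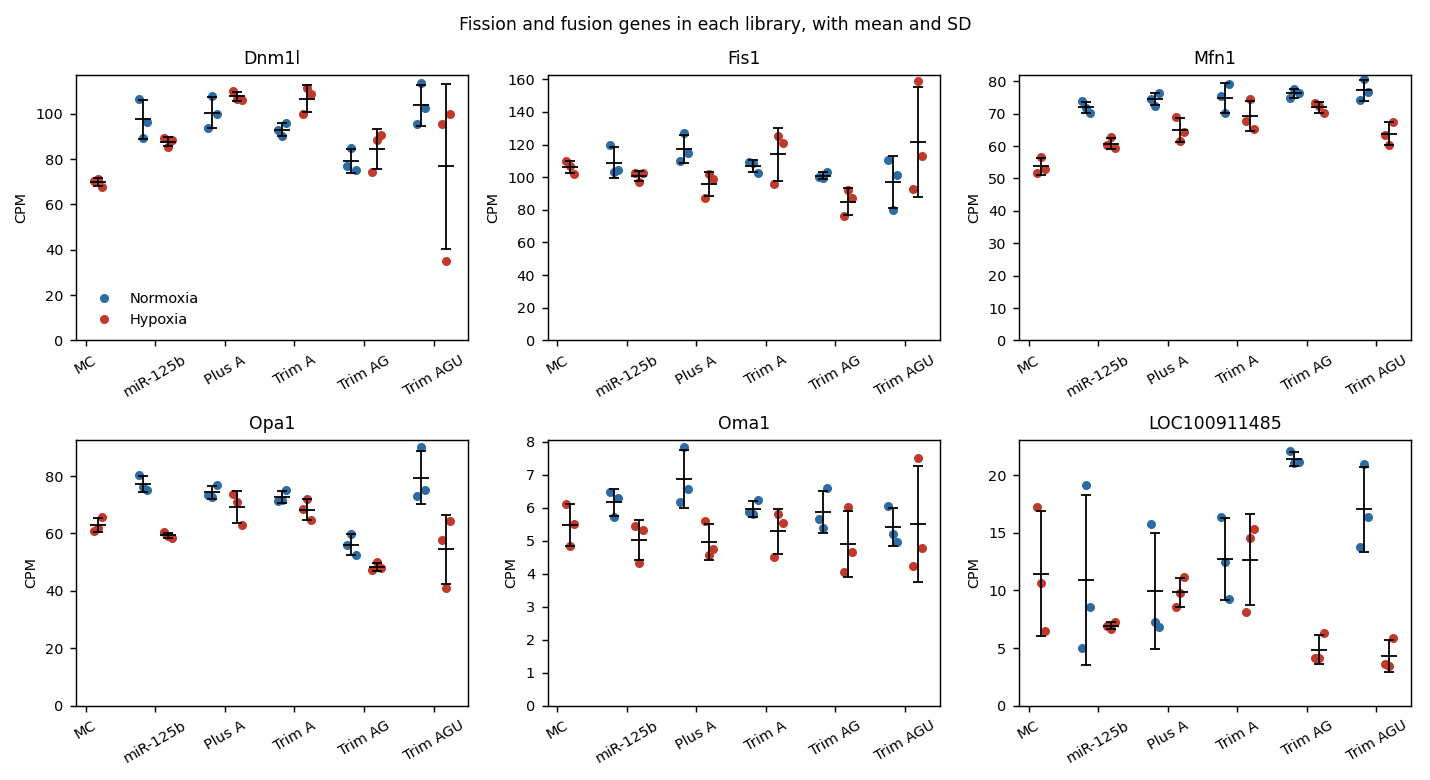
CPM of Dnm1l, Fis1, Mfn1, Opa1, Oma1 and LOC100911485 in each library (points), with the mean and SD of each of the 11 groups, on axes that start at 0. Dnm1l and Mfn1 are lowest in Hypoxia MC (70.5, 71.3 and 67.7 CPM, and 51.5, 56.7 and 53.0 CPM), Opa1 is low with Trim AG in both oxygen states, and 1 Hypoxia Trim AGU library of Dnm1l lies at 34.9 CPM.

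Hypoxia was then compared with normoxia under the same mimic, where the medium differed as well as the oxygen. Every member difference that passed the adjusted p with all libraries was a fall. *Dnm1l* passed as a rise without Hypoxia Trim A replicate 1 (0.17, edgeR adjusted p = 0.0176) and without Hypoxia Trim AG replicate 1 (0.20, edgeR adjusted p = 0.0459). With miR-125b, *Opa1* fell from 80.3, 76.1 and 75.3 to 60.4, 59.0 and 58.6 CPM, by 0.46 ± 0.05 on the log2 scale (edgeR adjusted p = 6.61e-05). *Mfn1* fell from 73.8, 71.8 and 70.2 to 60.2, 62.7 and 59.4 CPM, by 0.33 ± 0.05 (edgeR adjusted p = 0.000539). Neither gene's libraries overlapped, as was so for 61.5% of all genes in this comparison. *Dnm1l* and *Fis1* fell by 0.24 and 0.20 (edgeR adjusted p = 0.0156 and 0.0316). The *Dnm1l* call ended without Hypoxia miR-125b replicate 2 (edgeR adjusted p = 0.0655), and that of *Fis1* without any Hypoxia miR-125b replicate, with an adjusted p between 0.0676 and 0.119. Without Normoxia miR-125b replicate 1 the falls were 0.43, 0.31, 0.17 and 0.12 for *Opa1*, *Mfn1*, *Dnm1l* and *Fis1*, and each passed.

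With Plus A, *Fis1* fell from 110.0, 127 and 115 to 87.5, 102 and 98.7 CPM (-0.40 ± 0.08, edgeR adjusted p = 0.00223). *Mfn1* fell by 0.31 ± 0.06 (edgeR adjusted p = 0.00246). *Oma1* fell from 6.17, 7.85 and 6.58 to 5.58, 4.55 and 4.76 CPM, by 0.58 ± 0.15 (edgeR adjusted p = 0.0108), which is just below 1.5-fold. Without Normoxia Plus A replicate 1, which went against its label, the *Oma1* fall was 0.67 and was called (edgeR adjusted p = 0.00697). *Fis1*, *Mfn1* and *Opa1* then fell by 0.46, 0.33 and 0.24. With all libraries *Opa1* fell by 0.21 ± 0.07 (edgeR adjusted p = 0.0303), but by 0.10 with libraries scaled by their totals (edgeR adjusted p = 0.24), a scaling that moved the median of all genes by 0.12. The *Opa1* call also ended without Normoxia Plus A replicate 2 or 3 or Hypoxia Plus A replicate 2 or 3, with an adjusted p between 0.0522 and 0.108. At *Mff* ENSRNOG00000015428 the difference turned to 1.61 without Normoxia Plus A replicate 2 (edgeR adjusted p = 0.0404), the library at 47.1 CPM.

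With Trim A, *Mff* ENSRNOG00000015428 was called lower in hypoxia, with a difference of -1.44 ± 0.44 (edgeR adjusted p = 0.0257), with overlapping libraries. That call ended without Normoxia Trim A replicate 2, Normoxia Trim A replicate 3 or Hypoxia Trim A replicate 3 (edgeR adjusted p = 0.0877, 0.0914 and 0.0854). With Trim AG, *Fis1* fell by 0.24 ± 0.09 (edgeR adjusted p = 0.0498), which ended without any library but Hypoxia Trim AG replicate 2, with an adjusted p between 0.0829 and 0.149. Without Hypoxia Trim AG replicate 2, *Opa1* passed as a fall of 0.24 (edgeR adjusted p = 0.0253). With Trim AGU, *Opa1* fell by 0.52 ± 0.16 (edgeR adjusted p = 0.0482) and by 0.41 without Hypoxia Trim AGU replicate 2 (edgeR adjusted p = 0.0297). Leaving out any of the other 5 libraries ended this call, with an adjusted p between 0.0546 and 0.155. At *Mff* ENSRNOG00000015428 the Trim AGU difference was 0.45 (edgeR adjusted p = 0.781), and it was -2.28 without replicate 2 (edgeR adjusted p = 0.00975). At ENSRNOG00000048016 it became 1.65 without that replicate and was called (edgeR adjusted p = 0.00958). Described without a test, the difference at ENSRNOG00000015428 was 2.41 with miR-125b and -3.24 with Trim AG.

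Over members, 0 of 5 loci were called with miR-125b (20.9% of all genes), 0 of 7 with Plus A (22.8%) and 1 of 7 with Trim A (26.5%). With Trim AG it was 0 of 5 (32.8%) and with Trim AGU 0 of 7 (27.0%). With no minimum fold, 4, 4, 1, 1 and 1 members passed in the order of the mimics, all lower in hypoxia. The same rule took 50.8%, 49.2%, 47.6%, 54.7% and 30.2% of all genes in either direction. The median of the members was -0.33, -0.31, -0.19, -0.21 and 0.09 in that order, beside 0.00 to 0.02 over all genes.

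**Figure D5:**
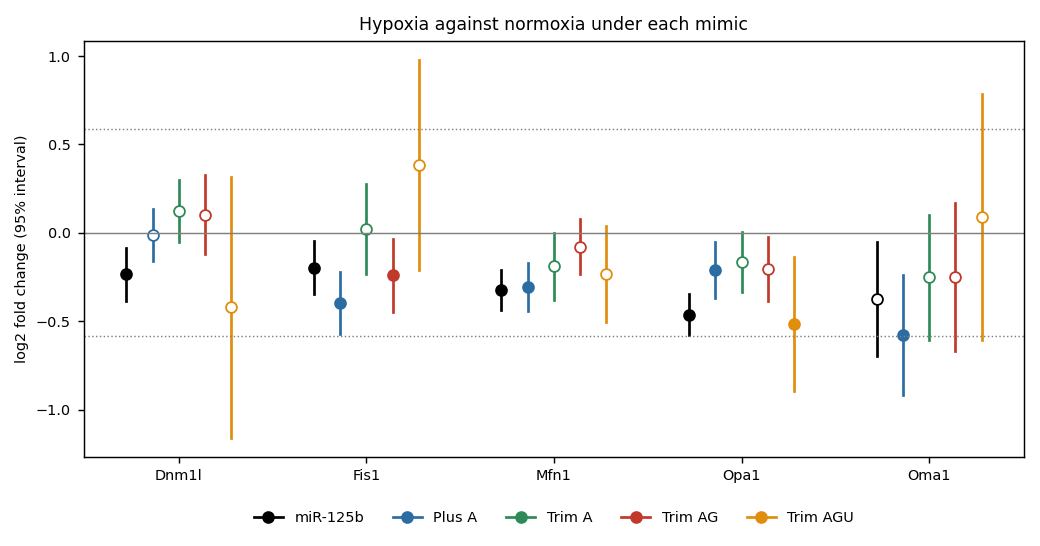
Log2 difference of hypoxia minus normoxia (y axis) of 5 members (x axis) under each of the 5 mimics (colours), with lines for the 95% confidence interval, filled points at an edgeR adjusted p below 0.05 and dotted lines at a fold of 1.5. The filled points lie below 0, among them Opa1 with miR-125b at -0.46 and Fis1 with Plus A at -0.40.

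Whether an isomiR's difference from miR-125b depended on oxygen was tested as an interaction, without *Mff*. No member was called, while 0.0193%, 0.605%, 11.3% and 0.966% of all genes were called from Plus A to Trim AGU. At an unadjusted edgeR p below 0.05 there were 2, 2, 3 and 0 of 5 members, and DESeq2 called 0 at this fold. No share of all genes was computed at the unadjusted p, so those counts are no result about the members. The *Dnm1l* interaction with Trim A was 0.36 (edgeR adjusted p = 0.0868) and that of *Opa1* with Trim A was 0.30 (edgeR adjusted p = 0.0848). For *Mfn1* with Trim AG it was 0.21 (edgeR adjusted p = 0.0697). Without Hypoxia Trim A replicate 1 the first 2 of these passed (edgeR adjusted p = 0.00431 and 0.0114), as did *Fis1* with Trim A (0.34, edgeR adjusted p = 0.0138). Without Hypoxia Trim AG replicate 1, *Dnm1l*, *Mfn1* and *Opa1* passed with Trim AG, at 0.40, 0.21 and 0.25 (edgeR adjusted p = 0.0102, 0.0488 and 0.0469). By DESeq2 with no minimum fold, *Dnm1l* and *Opa1* with Trim A and *Mfn1* with Trim AG passed with all libraries (adjusted p = 0.0258, 0.0253 and 0.0226). *Fis1* with Trim AGU became called without Hypoxia Trim AGU replicate 1 (0.80, edgeR adjusted p = 0.0492).

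The mitofusin-2-like locus *LOC100911485* is no member, but it carried nearly all counts at the pair of mitofusin-2 loci, 11124 of 11137. It had 22.1, 21.0 and 21.1 CPM in Normoxia Trim AG and 4.14, 4.16 and 6.33 CPM in Hypoxia Trim AG. The hypoxia difference was -2.13 ± 0.17 (edgeR adjusted p = 1.37e-05), the most marked oxygen difference among the tested loci named here. With Trim AGU it was -1.95 ± 0.27 (edgeR adjusted p = 0.00248). Against Hypoxia MC (17.2, 10.6 and 6.52 CPM) it fell by 1.17 with Trim AG (edgeR adjusted p = 0.0141), and by 0.75 without MC replicate 1 (edgeR adjusted p = 0.0517). It was also lower than MC with miR-125b (-0.69, edgeR adjusted p = 0.0468, with overlapping libraries) and with Trim AGU (-1.28, edgeR adjusted p = 0.0469). The miR-125b call ended without MC replicate 1 or 2 or any miR-125b replicate, with an adjusted p between 0.0679 and 0.264, and by DESeq2 (adjusted p = 0.16). The Trim AGU call ended without MC replicate 1 or 2 or Trim AGU replicate 1 or 3, with an adjusted p between 0.07 and 0.149, and was -1.18 without Trim AGU replicate 2 (edgeR adjusted p = 0.0355). The Trim AGU difference in oxygen was -1.86 without Hypoxia Trim AGU replicate 2 (edgeR adjusted p = 0.000371). The interaction of oxygen with Trim AG was -1.43 (edgeR adjusted p = 0.0447), and -1.08 without Normoxia miR-125b replicate 1 (edgeR adjusted p = 0.0547). Leaving out any other library but Normoxia miR-125b replicate 2 or Hypoxia Trim AG replicate 3 also ended that call, with an adjusted p between 0.0612 and 0.0951, as did DESeq2 and the fit of all libraries (adjusted p = 0.064 and 0.0755). The spread within groups was 0.492 on the log2 scale, more than in 95.4% of genes.

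The other genes of the pathway were taken from 4 lists with 47 names, of which 41 to 43 were tested in each comparison. Against Hypoxia MC, 4 rose and 3 fell past 1.5-fold with miR-125b, and 4 and 2 did so with Plus A. These counts were 10 and 3 for Trim A and 13 and 5 for Trim AG. For Trim AGU they were 11 and 2, and 6 and 3 without replicate 2. In the order of the mimics, 16.7%, 14.6%, 31.0%, 42.9% and 31.0% of the list genes were called, beside 21.9%, 24.8%, 28.1%, 37.2% and 23.8% of all genes. The fusion and cristae factors held 1 of 10, 0 of 9, 4 of 10, 6 of 10 and 6 of 10 genes called higher in that order, and none called lower. Their median difference was 0.28, 0.18, 0.45, 0.62 and 0.66. For Trim AGU, 1 of 10 was called and the median was 0.48 without Hypoxia Trim AGU replicate 2. The proteases and ubiquitin enzymes also held none called lower, with medians of 0.29, 0.20, 0.39, 0.45 and 0.43. Those of the mitochondrial content genes were 0.10, 0.26, 0.30, 0.49 and 0.57, so a rise was not particular to fusion and cristae factors. Medians of the remaining lists lay between -0.30 and 0.08. The share of all genes called higher alone was not computed. *Inf2*, the formin that builds actin at fission sites, fell with all 5 mimics. It had 163 to 173 CPM in Hypoxia MC, and 55.8 to 90.1 CPM with Trim A, where the difference was largest (-1.25 ± 0.16, edgeR adjusted p = 0.000397). Its Trim AGU call ended without any MC replicate or Trim AGU replicate 3, at differences from -0.65 to -0.51, and was -0.63 without replicate 2 (edgeR adjusted p = 0.00358). *Mtfr1*, mitochondrial fission regulator 1, rose with miR-125b, Plus A, Trim A and Trim AG, from 14.9 to 15.8 CPM in MC to 30.9 to 32.9 CPM with Trim AG (1.13 ± 0.08, edgeR adjusted p = 6.15e-06). *Prkaa2*, a catalytic subunit of the kinase AMPK that phosphorylates Mff, rose with the same 4 mimics, by 1.09 to 1.75. *Cdk1*, the mitotic kinase that phosphorylates Dnm1l, rose with Trim A, Trim AG and Trim AGU by 0.70, 1.65 and 1.71, the last of which was 1.45 without replicate 2. *Cdk5*, a further kinase of Dnm1l, fell with Trim A by 0.61 and with Trim AG by 0.89. Without Hypoxia Trim A replicate 1 the Trim A fall was 0.58, below 1.5-fold (edgeR adjusted p = 8.89e-06). *Pink1*, the kinase that marks damaged mitochondria for removal, fell with Trim AG by 0.81 (25.6 to 27.2 against 45.2 to 50.8 CPM, edgeR adjusted p = 3.69e-05).

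Relative to Hypoxia miR-125b, 3 pathway genes rose and 1 fell with Trim AG, and at most 1 was called with each of the other isomiRs. The Trim AG share was 9.52%, below the 19.3% of all genes called. Without Trim AG replicate 1 it was 6 and 2. Without Hypoxia Trim AGU replicate 2, 1 rose and 1 fell with Trim AGU, as with Trim A without Hypoxia Trim A replicate 1. *Cdk1* was higher with Trim AG (89.8 to 113 against 35.6 to 36.6 CPM, 1.48 ± 0.10, edgeR adjusted p = 3.61e-05) and with Trim AGU (1.53 ± 0.21, edgeR adjusted p = 0.0149). The Trim AGU call ended without any miR-125b replicate or Trim AGU replicate 3, with an adjusted p between 0.0822 and 0.118, and was 1.27 without Trim AGU replicate 2 (edgeR adjusted p = 0.000266). *Pink1* fell with Trim AG by 0.83, and *Trak2*, an adaptor that couples mitochondria to motors, rose by 0.76. *Prkaa2* rose with Plus A by 0.66. In normoxia 2 rose and 1 fell with Trim AG, and 4 rose with Trim AGU, or 3 without miR-125b replicate 1. These were 7.32% and 9.76% of the list genes, beside 13.9% and 11.4% of all genes. Among them, *Pink1* fell by 0.79 with Trim AG (15.1 to 17.0 against 26.6 to 27.6 CPM, edgeR adjusted p = 7.55e-05). *Cdk1* rose by 1.13 and 1.02, and *Rhot2*, a GTPase of mitochondrial transport, by 0.73 and 0.63, with Trim AG and Trim AGU. *Inf2* rose with Trim AGU by 0.71. Without miR-125b replicate 1 these genes were still called, except *Rhot2* with Trim AGU, which fell below 1.5-fold (0.58, edgeR adjusted p = 0.0052).

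In hypoxia against normoxia, *Cdk1* fell under all 5 mimics, by 1.03 to 1.81. *Pink1* rose under all 5, by 0.66 to 1.15, for example from 22.4 to 24.2 CPM in Normoxia Trim A to 42.1 to 47.1 CPM in Hypoxia Trim A (edgeR adjusted p = 5.87e-05). *Clpp*, a matrix protease, rose with Trim A, Trim AG and Trim AGU by 0.77, 0.85 and 1.27. *Usp30*, a deubiquitinase of the mitochondrial outer membrane, rose with each isomiR, by 0.65 to 0.86. With miR-125b neither gene was called, although both were higher in every hypoxia library. *Usp30* had 32.5 to 37.9 CPM in Normoxia miR-125b and 55.2 to 58.2 CPM in Hypoxia miR-125b. *Clpp* had 27.8 to 28.3 and 37.6 to 42.1 CPM in these groups. *Inf2* fell with Trim A, Trim AG and Trim AGU by 0.87, 0.96 and 0.66, and *Prkaa2* fell by 1.02 with Trim AGU. With Trim AGU, the calls of *Cdk1*, *Inf2*, *Prkaa2* and *Usp30* each ended without at least 1 of the libraries, Hypoxia Trim AGU replicate 3 among them for each (edgeR adjusted p = 0.0564, 0.0556, 0.0836 and 0.0543). Without Hypoxia Trim AGU replicate 2, all 4 stayed called, at -1.29, -0.67, -0.75 and 0.74, and *Clpp* and *Pink1* were at 1.08 and 1.00. Without the replicates that went against their labels, *Cdk1* was at -1.61 with miR-125b and -1.78 with Plus A. *Pink1* was then at 0.76 and 0.66, and *Usp30* with Plus A at 0.74. Over the 4 lists, 2 rose and 1 fell with miR-125b, and 2 and 2 with Plus A. It was 3 and 2 for Trim A, 5 and 4 for Trim AG, and 4 and 3 for Trim AGU. For miR-125b it was 1 and 1 without Normoxia miR-125b replicate 1. In the order of the mimics these were 7.14%, 9.52%, 11.9%, 21.4% and 16.7% of the list genes, each below the 20.9%, 22.8%, 26.5%, 32.8% and 27.0% of all genes. In the interaction, 2 pathway genes were called higher and 3 lower for Trim AG, which is 11.9% of the list beside 11.3% of all genes. It was 0 and 3 without Normoxia miR-125b replicate 1, and 5 and 4 without Hypoxia Trim AG replicate 1. None was called for the other isomiRs, except 1 lower for Trim A without Hypoxia Trim A replicate 1.

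Patterns over the 33 libraries were compared by Pearson's r of log2 CPM, as a description of libraries that share groups. *Dnm1l* was most like *Ankib1* (0.904), and then *Nedd4* and *Fyttd1* (0.891). *Fis1* was most like *AABR07065438.1* (0.916), *Nsmce1* (0.894) and *LOC100911516* (0.891). *Mfn1* was most like *Pak1ip1* (0.935), *Mpp6* (0.932) and *Actr3* (0.931). For *Opa1*, the genes given are *Frs2* (0.931) and *Bnip2* (0.904). *Oma1* was most like *Aasdhppt* (0.871), *Esd* (0.845) and *Cox6c* (0.833). The *Mff* loci had weaker matches, up to 0.689 for ENSRNOG00000015428 with *AABR07029204.1* and up to 0.561 for ENSRNOG00000048016 with *Eef2k*. Among the members, *Fis1* and *Oma1* (0.756) and *Dnm1l* and *Opa1* (0.686) were most alike.

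For Normoxia Plus A and Normoxia MC the authors gave a mean expression value of each group and no value per library here, so no error or test is given. The authors' mean was 2987 with Plus A and 2172 with MC for *Dnm1l*, 2213 and 1688 for *Mfn1*, and 2209 and 2065 for *Opa1*. It was 3482 and 3533 for *Fis1*, and 204 and 181 for *Oma1*. For *Mff* it was 537 and 645 at ENSRNOG00000015428 and 181 and 178 at ENSRNOG00000048016. The locus named *Mfn2* was near 0 in both (0.338 and 0.315), and *LOC100911485* had 294 with Plus A and 462 with MC.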

How the data were processed

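Poly-A RNA of H9C2 cells was sequenced from libraries that were not stranded. The authors deposited 12 tables of paired groups. In 11 of these the authors deposited raw counts of reads per gene, with no normalization, and FPKM, which scales these counts by gene length and library total. In the remaining table the authors deposited group means, an expression signal with no library of its own. The submitters' processing notes name HISAT2 and StringTie, and the genome build is not given in the sources used here. The authors' own fold changes and p-values in these tables were not used, nor were 66 columns of normalized values per library. Libraries were joined on the gene identifier, with 0 conflicts between tables, and a gene that a table left out was given a count of 0. CPM is the count scaled to the library's total.

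For each comparison edgeR 4.0.16 (R 4.3.3) was run on the libraries of their own groups, with TMM normalization, filterByExpr, the quasi-likelihood test and Benjamini-Hochberg adjustment over all genes tested. DESeq2 1.42.0 was an alternative. The others were no filter, library totals, 1 fit of all libraries, the replicate number as a block, other fold thresholds, leaving out each library, and summed loci, which was chosen after seeing the data. The fits were tested on simulated data. The members and lists were chosen with earlier results of these data known. All members were named, and, for each, the 3 genes with the highest r, of which 1 is not reported here. Of the pathway lists, up to 3 called genes per direction were named in each family of comparisons, by the size of the difference, where groups did not overlap and the mean was at least 1 CPM. Chi-square values per gene between replicates were 4.97 to 236, above sampling noise. Errors are spreads between libraries and include the counting error.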

Additional observations from a re-analysis of the deposited data

Results flagged for a closer look

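The difference of *Opa1* between Trim A and miR-125b ran in opposite directions, higher in every Trim A library in hypoxia and lower in every one in normoxia. In normoxia the groups nearly touched, at up to 75.19 CPM with Trim A and from 75.27 CPM with miR-125b. Neither contrast passed the edgeR adjusted p with all libraries, and 29.0% and 25.3% of all genes had no overlap in hypoxia and normoxia. The interaction was 0.30 on the log2 scale. This interaction did not pass the adjusted p by edgeR (0.0848) and passed by DESeq2 (adjusted p = 0.0253). At *Mff* ENSRNOG00000015428 every Trim AG library lay below every miR-125b library in hypoxia and above it in normoxia, with a difference between these contrasts of -5.69 on the log2 scale. *Mff* was selected on the hypoxia contrast, so this difference was not tested.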

How the results depend on the processing

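Counts of called members, summed over the comparisons of each question, moved mainly with the fold threshold and with *Mff*. Each comparison tested 5 or 7 loci. With no fold threshold, 29.9% to 59.5% of all genes passed against MC and 2.19% to 41.4% against miR-125b in hypoxia. It was 0% to 38.5% in normoxia and 30.2% to 54.7% between oxygen states. The share of all genes is not given for each setting, so the counts are no result about the members. Against MC in hypoxia 4 were called. The count was 13 with no fold threshold, 2 at a fold of at least 2, 7 with summed loci, and 3 to 5 on leaving out single libraries. Against miR-125b in hypoxia 0 were called, 4 with no fold threshold, and 0 to 0 on leaving out single libraries. In normoxia 3 were called, 5 with no fold threshold, 0 with all libraries in 1 fit, 0 with summed loci, and 2 to 4 on leaving out single libraries. In hypoxia against normoxia 1 was called, 3 by DESeq2, 2 with no filter on low counts, 0 with all libraries in 1 fit, 11 with no fold threshold and 2 with summed loci. It was 2 without the replicates that went against their labels, and 0 to 3 on leaving out single libraries. The interaction had 0 called, 1 with summed loci, and 0 to 1 on leaving out single libraries. Summed loci were chosen after seeing the data and include the mitofusin-2-like locus, so their counts cover another set of loci than the main counts. The cause of these moves was not tested. With the replicate block, 5 members were called against MC in hypoxia, 0 against miR-125b in hypoxia, 3 in normoxia, 1 between oxygen states and 0 in the interaction, and the added call was *Mff* ENSRNOG00000048016 with Trim A. The labels state no litter, day or culture shared by libraries of the same number, and the main fits used no pairing. Every same-number correlation passed 0.1 in 0 of 18 comparisons, with single values from -0.261 to 0.146. A batch shared by part of the libraries was not tested. The fit of all libraries ended the *Mff* calls with Plus A against MC (edgeR adjusted p = 0.222) and with Trim A between oxygen states (0.228). It also ended the *Dnm1l* changes below 1.5-fold with miR-125b and Trim AG against MC, Plus A against miR-125b and Normoxia Trim AG (edgeR adjusted p = 0.112, 0.111, 0.546 and 0.17). DESeq2 ended the *Mff* call with Plus A against MC (adjusted p = 0.111) and the normoxia call with Trim AGU (0.0507). Library totals ended the falls of *Dnm1l* and *Fis1* in hypoxia with miR-125b (edgeR adjusted p = 0.0739 and 0.158). No called difference of a named member changed sign in any alternative. The likeness of *Dnm1l* to *Ankib1*, *Nedd4* and *Fyttd1* was 0.698, 0.700 and 0.658 by Spearman's rho. The locus named *Mfn2* held too few counts for a test, and whether its reads went to *LOC100911485* was not tested.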
